A study of Mus musculus with 4 samples.

Results

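Interferon beta, the 4 chains of the interferon alpha/beta and interferon gamma receptors, and the 4 Janus kinases (JAKs) make up the front end of interferon signalling. Their genes were taken by symbol, with a rule that uses no measured value although earlier results of these data were known: Ifnb1, Ifnar1, Ifnar2, Ifngr1, Ifngr2, Jak1, Jak2, Jak3 and Tyk2, which are 9 of the 24411 gene symbols counted. All 9 symbols were found, and 7 of them had enough reads to be tested, while Ifnb1 and Jak3 did not. The cells were BV2, an immortalised mouse microglial line, carrying the genotype label Pu.1 KO for a CRISPR-Cas9 knockout of PU.1, a myeloid transcription factor encoded by Spi1. In 2 libraries they had received 10 ng/ml lipopolysaccharide (LPS), a bacterial cell wall component sensed by the receptor TLR4, and in 2 they were untreated. Both groups carry the knockout, wild-type cells are not used here, and the labels do not say whether the knockout cells are 1 clone. The time in LPS is given as 2 h in one label and as 4 h in another.

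Interferon beta is a secreted cytokine that macrophages and microglia make when TLR4 signals through its adaptor TRIF to the kinase TBK1 and the transcription factor IRF3. It binds a receptor made of the chains IFNAR1 and IFNAR2, which carry the kinases TYK2 and JAK1, whereas interferon gamma binds IFNGR1 and IFNGR2, which carry JAK1 and JAK2. The activated kinases phosphorylate STAT transcription factors, which act at DNA elements called ISRE, where IRF9 takes part, and GAS. JAK3 works with the common gamma chain of receptors for interleukins such as IL-2 and IL-4.

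Gene counts totalled 3256197 and 3749159 in the LPS libraries and 4502105 and 4115011 in the untreated libraries. Levels are given as CPM, reads relative to the scaled library size, after TMM scaling, which sets the bulk of genes equal between libraries. Changes are log2 fold changes of LPS over untreated from edgeR's quasi-likelihood test with its standard error (SE), and adjusted p is Benjamini-Hochberg over the 9992 genes tested. Reads of Spi1, the targeted gene, numbered 745 and 958 with LPS and 844 and 743 untreated. After scaling Spi1 stood at 258 and 291 CPM with LPS, against 161 and 164 CPM untreated. It rose (log2 fold change 0.75, SE 0.09, edgeR adjusted p = 8.8e-10). These values say nothing of whether its reading frame is intact. Of uniquely placed reads, those in no annotated feature made up 59.1% and 57.4% with LPS and 53.0% and 51.8% untreated, and unmapped reads were 23.0% and 24.2% of all reads with LPS and 19.0% and 20.7% untreated. Rn45s, a ribosomal RNA precursor, took 20.9% and 19.96% of gene counts with LPS and 14.6% and 19.0% untreated, and the part of these shares in the results was not tested. The labels' extraction protocol speaks of hMSCs, a usual short form for human mesenchymal stem cells, although organism and gene symbols are mouse. Separate cultures are not stated for the libraries of a group, and p-values then measure a spread that may be technical. All 10 microglial and macrophage markers were counted, at a summed 3130 to 3267 CPM in LPS and 2795 to 2808 CPM in untreated libraries. Within that sum 6 markers were higher with LPS, 2 lower and 2 did not pass. Laptm5 was at 268 CPM with LPS and 706 CPM untreated, and Itgam at 117.5 CPM with LPS and 25.7 CPM untreated. Among markers of other cells, the neuron and epithelial lists had 0 reads, and the lymphocyte, astrocyte and fibroblast lists had at most 2 reads in any library. Endothelial markers summed to 34.0 and 49.9 CPM in LPS and 22.8 and 23.2 CPM in untreated libraries, from Kdr, Vwf and Cdh5, with Pecam1, Tek and Cldn5 at 0. Their part in the results below was not tested. In RNA from whole cultures, fewer cells expressing a gene and less RNA per cell cannot be told apart.

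Ifnb1, the ligand, was counted at 3 and 2 reads in the LPS libraries and at 0 reads in both untreated libraries. Those reads stood for 1.04 and 0.607 CPM with LPS. The untreated zeros allow up to 0.574 and 0.664 CPM (3 counts per library). Set against a floor of 3 counts over both untreated libraries, Ifnb1 was at least 2.63-fold higher with LPS, a bound that takes the 5 LPS reads as they stand. With the counting error of both groups, the lower limit of the 95% exact interval of the ratio was 1.45. It did not enter the test, and when every gene with 1 count was tested it did not pass (edgeR adjusted p = 0.065, unadjusted p = 0.0276). The groups did not overlap, but both LPS counts lay at or under 3 reads.

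None of the other listed interferon genes was detected. Of 20 listed interferon genes other than Ifnb1 (13 Ifna genes with Ifnab, Ifne, Ifnk, Ifnz, Ifng, Ifnl2 and Ifnl3), 20 had 0 reads in all 4 libraries. A count of 0 allows up to 1.04 and 0.911 CPM in the LPS libraries and 0.574 and 0.664 CPM in the untreated ones. The Ifna genes are close copies of each other, and reads that fit several places are not in these counts. Ifna15 and Ifna14, the annotated neighbours of Ifnb1 on its higher-coordinate side, were among the genes at 0. On the other side, Hacd4 and Focad had reads and did not pass (edgeR adjusted p = 0.474 and 0.338).

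The promoter window of Ifnb1 is shown because the known enhancer of this gene, bound by IRF3 or IRF7, NF-kB and AP-1 after TLR4 signals, lies in it. Windows run from 250 bases before to 50 after the gene start in RefSeq (GRCm38.p6), read along the gene's strand, and coordinates are those of that table, since the deposited counts carry none. Capitals mark matches on either strand to an IRF core (AANNGAAA), an ISRE core (GAAANNGAA), a kB-like element (GGNNNTTCC), GAS (TTCNNNGAA), AP-1 (TGANTCA) or a PU.1 core (GAGGAA). Some of these letters were settled after the Ifnb1 window had been seen.
Ifnb1, chr4:88522745-88523044, minus strand: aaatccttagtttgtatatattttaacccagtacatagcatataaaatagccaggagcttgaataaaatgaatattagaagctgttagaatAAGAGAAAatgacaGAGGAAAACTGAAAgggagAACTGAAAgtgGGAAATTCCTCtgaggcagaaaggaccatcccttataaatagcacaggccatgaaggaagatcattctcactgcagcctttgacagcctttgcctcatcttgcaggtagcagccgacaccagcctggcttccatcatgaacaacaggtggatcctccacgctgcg

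The Ifnb1 window held 3 IRF cores, with first bases at -159, -139 and -126 from the start, and 1 kB-like element at -115 that matches the pattern on both strands. A PU.1 core lay at -145, next to the IRF core at -139, and another on the opposite strand at -110 overlapped the kB-like element. Of 32851 promoter windows of the same length, 23.9% held an IRF core, 18.5% a kB-like element and 28.3% a PU.1 core, so each single match is common. No ISRE core, GAS or AP-1 letters were found in it. These matches describe letters only and not binding.

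Taking the 9 genes as a set, 7 of the 7 that were tested rose and 0 fell. Among all 9992 genes tested, 51.9% were called, 26.6% higher and 25.3% lower. These shares are the background for the counts of every list below. Each of the 7 had at least 86 reads in every library, so none entered the test through 1 group alone. Their median log2 fold change was 0.84, beside a median of 0.0006 over all genes tested. Scaling by library size alone moved that overall median to -0.36, and of all called genes 22.4% were then higher, against 51.3% with TMM. Under it the median of the 7 was 0.48, 6 stayed called higher and Ifnar2 did not pass. None of the 7 changed direction under any of the 14 alternatives.

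**Figure D1:**
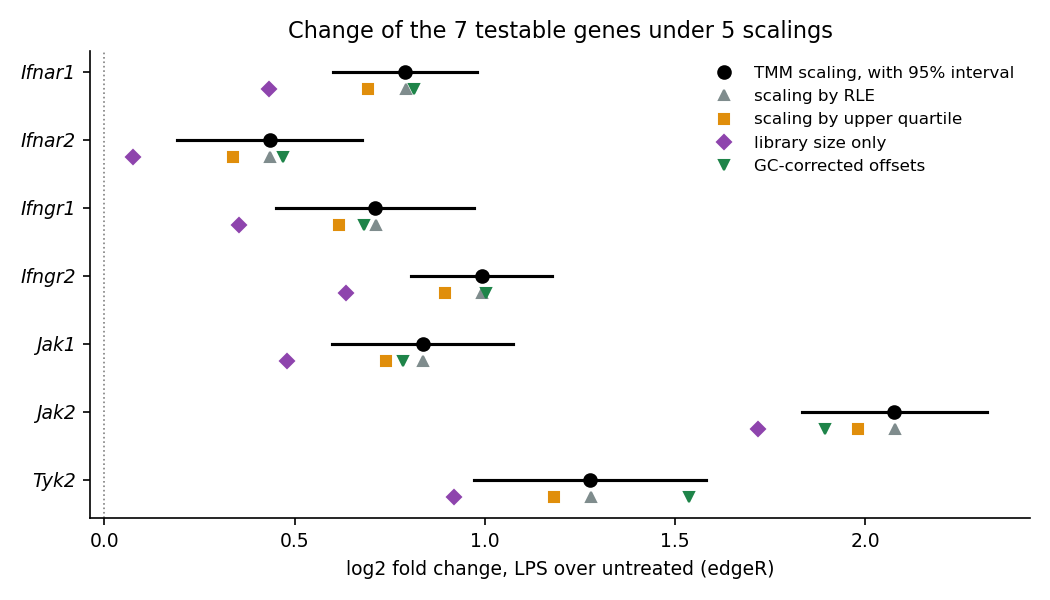
log2 fold change of LPS over untreated for the 7 testable genes, with the 95% interval of the edgeR fit at TMM scaling (black) and the values under 4 other scalings (coloured symbols below). Every symbol lies above 0, from 0.08 for Ifnar2 with library size only to 2.08 for Jak2 with TMM or RLE.

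All 4 receptor chains rose with LPS, by 1.35-fold to 1.99-fold. Ifnar1, the chain that carries TYK2, had 537 and 613 reads in the LPS libraries and 552 and 496 reads in the untreated libraries. After scaling it stood at 186 and 186 CPM with LPS, against 106 and 110 CPM untreated (means 186 ± 0.00199 and 108 ± 2.92 CPM, SD, n = 2 each). Its log2 fold change was 0.79 (SE 0.09, edgeR adjusted p = 7.4e-10), and the groups did not overlap. The share of all tested genes whose groups do not overlap was not counted, so for every gene here such a gap is a description only. The raw reads hardly differ between groups, while the LPS libraries held fewer gene counts, so this rise is one relative to library size. With scaling by library size alone the log2 fold change of Ifnar1 was smaller but still called (0.43, edgeR adjusted p = 0.000239).

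Ifnar2, the chain that binds interferon most tightly and carries JAK1, had the smallest change of the 7 tested genes. It was at 71.4 and 75.9 CPM with LPS, against 57.6 and 51.3 CPM untreated, again without overlap. Its log2 fold change was 0.43 (SE 0.12, edgeR adjusted p = 0.0023). The call was lost with scaling by library size alone (log2 fold change 0.08, edgeR adjusted p = 0.638) and without untreated replicate 2 (0.35, edgeR adjusted p = 0.093). Over the other 12 alternatives it was called each time.

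Ifngr1, which binds interferon gamma, was at 56.5 and 61.6 CPM with LPS, against 36.0 and 36.3 CPM untreated. Its log2 fold change was 0.71 (SE 0.13, edgeR adjusted p = 7.8e-06). Ifngr2, the signalling partner that brings in JAK2, was at 229 and 240 CPM with LPS, against 117 and 118 CPM untreated. Its log2 fold change was 0.99 (SE 0.09, edgeR adjusted p = 5.1e-13). For both gamma chains the libraries of the groups lay apart.

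**Figure D2:**
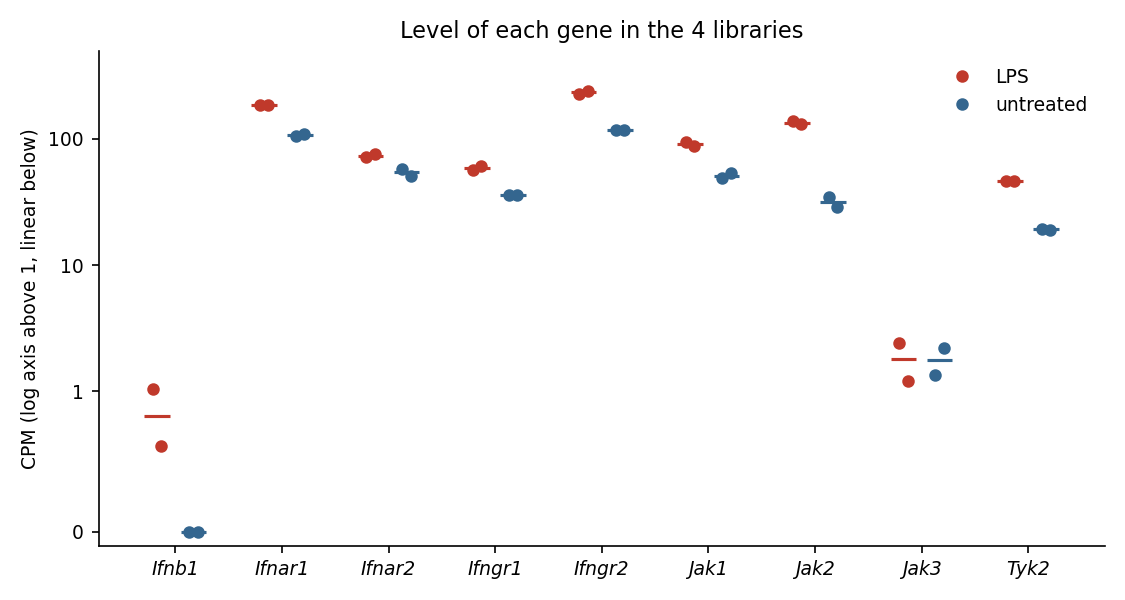
Level of each of the 9 genes as CPM (log axis above 1, linear below) in the 2 LPS libraries and the 2 untreated libraries, 1 point per library with the group mean as a bar. The LPS points lie above the untreated points for every gene except Jak3, whose groups overlap.

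Of the kinases, Jak2 changed most. It had 398 and 431 reads with LPS, against 181 and 130 untreated, and stood at 138 and 131 CPM with LPS, against 34.6 and 28.8 CPM untreated (means 134 ± 5.01 and 31.7 ± 4.15 CPM, SD, n = 2 each). This was a 4.22-fold rise (log2 fold change 2.08, SE 0.12, edgeR adjusted p = 3.3e-20), above 96.3% of the genes tested. Both LPS libraries were far above both untreated ones, also in raw reads.

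Tyk2, the kinase bound to IFNAR1, had the next largest change, at 46.8 and 46.7 CPM with LPS, against 19.5 and 19.0 CPM untreated. It rose 2.42-fold (log2 fold change 1.28, SE 0.15, edgeR adjusted p = 6.5e-10). Jak1, the kinase shared by both interferon receptors, was at 94.9 and 88.0 CPM with LPS, against 48.8 and 53.7 CPM untreated. It rose 1.79-fold (log2 fold change 0.84, SE 0.12, edgeR adjusted p = 5.2e-08). Neither gene's groups overlapped.

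Jak3 was barely expressed. It had 7 and 4 reads with LPS and 7 and 10 reads untreated, or 2.43 and 1.21 CPM with LPS against 1.34 and 2.21 CPM untreated, and the groups overlapped. The ratio of summed reads after scaling was 1.02, with a 95% exact interval of 0.432 to 2.31 that covers counting error only, so changes within that interval were not detectable at this depth. Insl3, which overlaps Jak3 on the same strand, had 1 read in all. The receptor partner of JAK3, Il2rg, the common gamma chain, was well expressed, with 256 and 294 reads with LPS and 568 and 525 untreated, and fell (log2 fold change -0.34, SE 0.11, edgeR adjusted p = 0.0067).

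Ratios between partner genes within a library do not depend on the scaling between libraries. Reads of Jak2 per read of Jak1 were 1.45 and 1.49 with LPS and 0.710 and 0.535 untreated, so the ratio lay above 1 with LPS and below 1 untreated. Reads of Tyk2 per read of Jak1 were 0.493 and 0.531 with LPS and 0.400 and 0.354 untreated. On the log2 scale the mean differences, LPS minus untreated, were 1.25 for Jak2 over Jak1 and 0.44 for Tyk2 over Jak1. For both ratios the LPS libraries lay above the untreated ones.

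Between the chains of each receptor the differences were smaller in size. Reads of Ifnar2 per read of Ifnar1 were 0.384 and 0.408 with LPS and 0.545 and 0.468 untreated, a difference of -0.35 on the log2 scale. Reads of Ifngr2 per read of Ifngr1 were 4.05 and 3.89 with LPS and 3.27 and 3.26 untreated, a difference of 0.28. Jak3 over Jak1, with at most 10 Jak3 reads a library, differed by -0.84. In each of the 5 ratios the groups did not overlap, and an exact permutation test (two-sided) gave p = 0.333 for each, the smallest that 2 against 2 libraries allow, so no difference could pass this test.

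**Figure D3:**
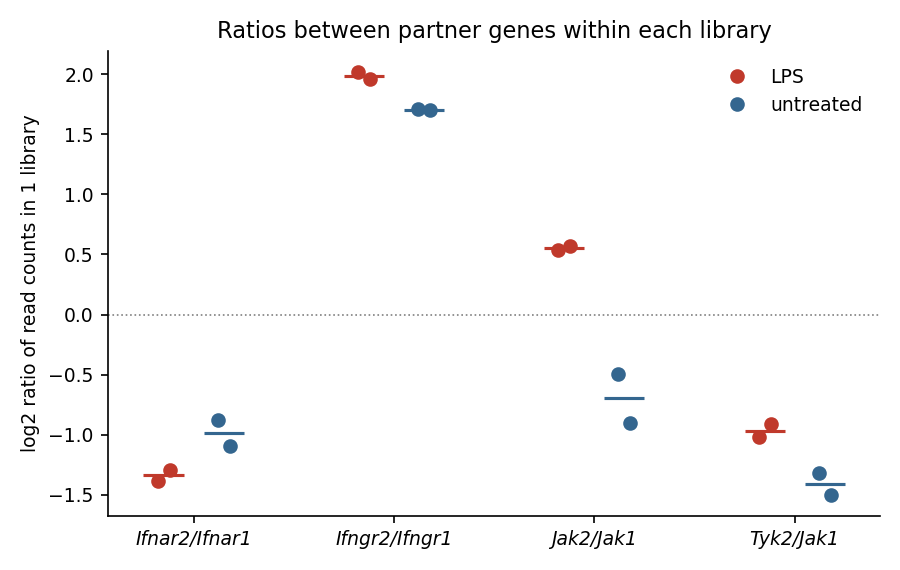
log2 ratio of read counts of 2 partner genes in the same library, for 4 pairs, with the 2 LPS libraries and the 2 untreated libraries as points and group means as bars. Jak2 over Jak1 lies above 0 with LPS (0.54 and 0.57) and below 0 untreated (-0.49 and -0.90).

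Levels of different genes were compared as CPM per kb of the longest GENCODE vM21 transcript of the symbol. With LPS the order was Ifngr2 (63.2 ± 2.00 CPM per kb), Ifnar1 (47.6 ± 0.000510), Ifngr1 (28.0 ± 1.72), Jak2 (26.7 ± 0.995), Ifnar2 (24.2 ± 1.05), Jak1 (18.7 ± 0.997), Tyk2 (9.69 ± 0.00462), Ifnb1 (1.10 ± 0.408) and Jak3 (0.450 ± 0.212; SD, n = 2 each). Ifngr1 and Jak2 overlapped in this order, and the other neighbours did not. The place of Ifnb1 above Jak3 rests on 3 and 2 reads against 7 and 4. Untreated, Ifnb1 had 0 reads, so the order of these genes is not secure in either group. Untreated, Ifngr2 (31.8 ± 0.171 CPM per kb) and Ifnar1 (27.5 ± 0.747) again led, followed by Ifnar2 (17.9 ± 1.45) and Ifngr1 (17.1 ± 0.106), which overlapped. Below them came Jak1 (10.4 ± 0.717), Jak2 (6.30 ± 0.824), Tyk2 (3.99 ± 0.0713), Jak3 (0.438 ± 0.152) and Ifnb1 at 0. By this length Jak2 stood above Jak1 with LPS and below it untreated. The receptor chains stood above Tyk2 in both groups. The order among genes rests on the transcript length: with the median annotated transcript, which counts short fragments, Jak1 led in LPS at 145 CPM per kb, Ifnar1 came next at 134, and Jak2 stood below Jak1 at 30.1.

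Of the receptor genes, 3 lie side by side on mouse chromosome 16, in the order Ifnar2, Il10rb, Ifnar1 and Ifngr2, all on the same strand over 192.8 kb (GENCODE vM21). Il10rb, the shared chain of the receptors for IL-10 and interferon lambda, was at 151 and 173 CPM with LPS, against 95.4 and 99.3 CPM untreated, and rose (log2 fold change 0.74, SE 0.10, edgeR adjusted p = 1.5e-08). All 4 of these genes therefore rose, while Gm21970, annotated there as overlapping Ifnar2, has no row in the counts and no value. The next genes on either side were not called: Olig1, Olig2 and Dnajc28 had no reads, and Tmem50b did not pass (log2 fold change -0.24, 95% interval -0.55 to 0.08). Of the 8 tested genes of this neighbourhood list, Il10rb included, 1 was higher and 2 lower, with a median log2 fold change of 0.01 that turned negative with upper-quartile scaling (-0.08), GC correction (-0.09) and library size alone (-0.35). Gart, a purine synthesis gene, fell (log2 fold change -0.59), as did Atp5o, a subunit gene of ATP synthase (-0.53). With library size alone the split was 1 higher and 4 lower, and without LPS replicate 2 the genes called higher numbered 3.

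**Figure D4:**
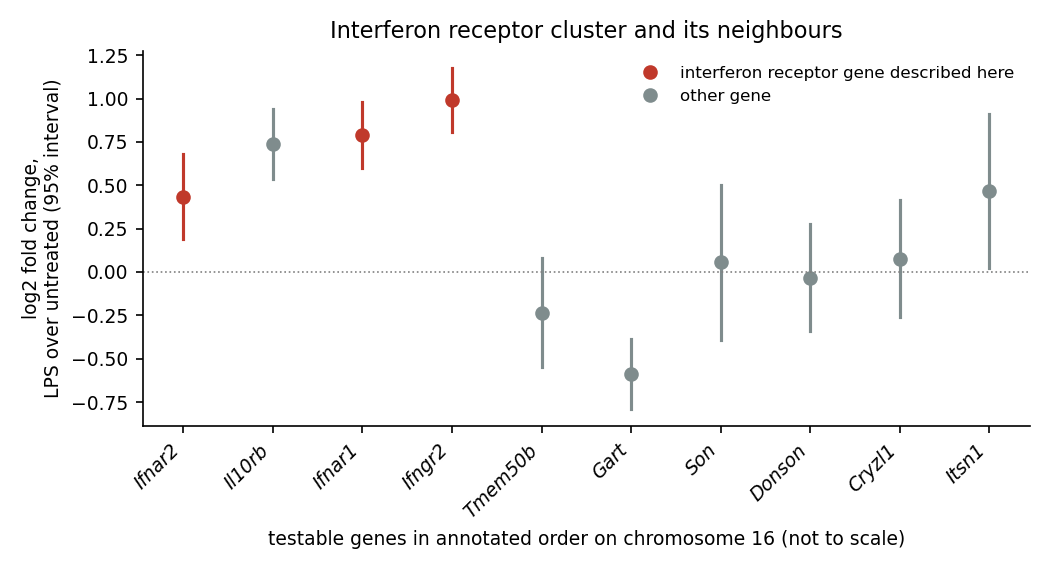
log2 fold change of LPS over untreated with 95% intervals for testable genes in their annotated order on chromosome 16, with the receptor genes described here in red. Ifnar2, Il10rb, Ifnar1 and Ifngr2 lie between 0.43 and 0.99, and the next tested genes Tmem50b (interval across 0) and Gart lie below 0. Further on, Son, Donson and Cryzl1 lie at 0.06, -0.03 and 0.08, and Itsn1 at 0.47 (interval 0.02 to 0.91), and none of them passed.

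The JAK genes and Ifngr1 had neighbours that moved either way. Of 8 tested genes on a list of genes near them or overlapping them, 3 were higher, 3 lower and 2 did not pass, with a median log2 fold change of 0.13 that turned negative with library size alone (-0.23). Near Tyk2, the adhesion gene Icam1 rose (log2 fold change 2.85), as did the kinase chaperone gene Cdc37 (0.36), while Raver1 and Pde4a fell (-0.81 and -0.85). Next to Jak2, Rcl1 fell (-0.56) and Insl6 did not pass (0.71, edgeR adjusted p = 0.16). Near Jak3, B3gnt3 had 31 and 37 reads with LPS, against 19 and 23 untreated, and rose (1.34, edgeR adjusted p = 0.00017). Further neighbours were not on that list and are not in its counts. On one side of Ifngr1, beyond Olig3, which had no reads, Tnfaip3, which encodes the NF-kB inhibitor A20, rose by 4.98 on the log2 scale. Next to Jak1, Ak4, which encodes an adenylate kinase, had 172 and 160 reads with LPS, against 153 and 111 untreated, and rose (0.99, edgeR adjusted p = 8.8e-08). Near Jak3, Colgalt1 rose (0.35, edgeR adjusted p = 0.00045), and near Jak2, Ak3 did not pass (-0.06, edgeR adjusted p = 0.644). Raver2, which overlaps Jak1 on the other strand, had no reads, and the opposite strand of each of the 9 genes held at most 6 reads in a library.

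The promoter windows of the interferon alpha/beta receptor chains are shown because each holds GAS letters, an element of interferon target genes. Capitals mark the same motifs as above.
Ifnar1, chr16:91484965-91485264, plus strand: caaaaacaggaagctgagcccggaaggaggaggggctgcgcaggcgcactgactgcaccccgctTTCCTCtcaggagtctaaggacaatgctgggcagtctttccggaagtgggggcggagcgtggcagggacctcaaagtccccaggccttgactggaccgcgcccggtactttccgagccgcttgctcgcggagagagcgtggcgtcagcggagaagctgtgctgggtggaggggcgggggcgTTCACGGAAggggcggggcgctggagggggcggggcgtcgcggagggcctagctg
Ifnar2, chr16:91372533-91372832, plus strand: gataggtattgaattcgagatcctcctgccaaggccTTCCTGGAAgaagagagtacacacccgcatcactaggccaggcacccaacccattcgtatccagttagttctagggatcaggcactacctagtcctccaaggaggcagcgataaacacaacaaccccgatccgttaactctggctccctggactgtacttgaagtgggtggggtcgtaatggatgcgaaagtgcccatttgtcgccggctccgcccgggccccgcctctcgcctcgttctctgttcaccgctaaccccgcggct

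GAS letters began at -5 in Ifnar1 and at -214 in Ifnar2, and 8.30% of all windows held such letters. Ifnar1 also held a PU.1 core on the opposite strand at -186. The window of Ifngr2 held a kB-like element at -75, and that of Jak3 an ISRE core at -143 and a kB-like element at -86. An ISRE core was found in 8.56% of all windows and AP-1 letters in 7.81%. No match to the 6 motifs was found in the windows of Ifngr1, Jak1, Jak2 and Tyk2, which says only that these letters are not in these windows. GC content was 42.7% in the Ifnb1 window and 81.0% in that of Jak2, beside a median of 52.7% over all windows.

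Genes that lead to Ifnb1 after TLR4 signals rose more often than they fell. Of 22 listed genes, all tested, 13 were higher, 2 lower and 7 did not pass, with a median log2 fold change of 0.46. Over all genes tested, 26.6% were higher and 25.3% lower. Irf7, which amplifies interferon transcription, was at 235 ± 16.5 CPM with LPS, against 2.56 ± 0.173 CPM untreated (SD, n = 2 each). Cd14, a co-receptor for LPS, was at 1191 CPM with LPS and 74.5 CPM untreated, and Ikbke, a kinase related to TBK1, at 276 CPM with LPS and 19.8 CPM untreated. Irf1 rose by 2.99 and Tbk1 by 1.21 on the log2 scale. Irf3 itself, which is activated by phosphorylation, did not pass (log2 fold change -0.21, edgeR adjusted p = 0.234), nor did Tlr4 (0.29, edgeR adjusted p = 0.0545). The genes that fell were Tbkbp1, an adaptor of TBK1, and Crebbp, a histone acetyltransferase (-0.72 and -0.69). With library size alone the list had 9 higher and 7 lower, with upper-quartile scaling 12 and 4, and the number lower was 1 without untreated replicate 2 and 4 without LPS replicate 1.

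Downstream of the JAKs, Stat2 and Irf9, whose products act together at ISRE, rose with LPS. Stat2 had 324 and 409 reads with LPS, against 35 and 46 untreated, and stood at 118 ± 8.40 CPM with LPS, against 8.43 ± 2.46 CPM untreated (SD, n = 2 each). It rose 14.2-fold (edgeR adjusted p = 6.4e-26). Irf9 was at 98.0 ± 12.6 CPM with LPS, against 8.93 ± 0.191 CPM untreated, and rose by 3.46 on the log2 scale. Stat3, used by IL-10 and IL-6 receptors, rose 1.85-fold. Stat5a and Stat5b fell (log2 fold changes -1.31 and -1.01), Stat6 did not pass (-0.12, edgeR adjusted p = 0.278), and Stat4 had no reads. Beside the 14.2-fold of Stat2, the receptors and kinases above it ran from 1.35-fold to 4.22-fold.

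Inhibitors of the receptors and JAKs moved either way, and 3 of them rose by more than 3 on the log2 scale. Of 18 listed genes 16 were tested, with 8 higher, 3 lower and 5 that did not pass (median log2 fold change 0.55). The shares over all genes tested were 26.6% higher and 25.3% lower. Usp18, which binds IFNAR2 and blocks its signal, had 579 and 668 reads with LPS and 5 in each untreated library (log2 fold change 7.58). Isg15, which stabilises USP18 in human cells, was at 239 CPM with LPS and 0.935 CPM untreated (7.97). Usp18 and Isg15, with at most 5 reads in an untreated library, entered the test through the LPS group alone. Socs3 was at 52.0 CPM with LPS and 5.10 CPM untreated (3.33), and Ptprc, a receptor phosphatase also used as a leukocyte marker, rose by 1.39. Socs1, an inhibitor of JAK kinase activity, had too few reads to test, 8 and 10 with LPS and 1 in each untreated library. The genes that fell were Ptpn6, Pias3 and Sh2b3 (-0.23, -1.22 and -0.37). DESeq2 called 6 higher and 0 lower, library size alone gave 4 and 4, and without untreated replicate 1 the number lower was 0 and without untreated replicate 2 it was 1.

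Most of the tested target genes of both interferon types were higher with LPS. Of 16 listed type I target genes 16 were tested and 16 were higher, with a median log2 fold change of 7.48, or 7.16 with the 3 genes that lacked untreated reads set at their bound. Of 17 listed interferon gamma targets 11 were tested, 10 were higher and Irf8 was lower (-0.58), with a median of 5.30, or 5.20 with 4 such genes at their bound. Many genes of both lists had few untreated reads, such as Ifit1 (5 and 2), Rsad2 (6 and 4) and Gbp2 (0 and 2). These entered the test through the LPS group alone and could hardly be called lower, so the numbers called higher were partly set by the filter. Others, such as Bst2 (364 and 328 untreated reads) and Irgm1 (100 and 102), had reads in every library. Without untreated replicate 2, Irf8 no longer passed. Irgm1, Cd274 and Igtp rose by 4.66, 4.61 and 4.47, while Ciita and Cxcl9, targets used to read interferon gamma, had at most 2 reads in any library. Gbp4 and Ido1, also on the gamma list, had 0 reads in every library. Iigp1 and Tgtp1 had at most 10 reads in a library and were not tested. Many of these targets respond to both interferons and to NF-kB or IRF3 directly, and the Ifit, Oas and Gbp families hold close copies whose counts are uncertain.

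Other receptors that use JAKs changed either way. Of 36 listed genes 24 had reads and 15 were tested, with 8 higher, 4 lower and 3 that did not pass. Beside 26.6% higher and 25.3% lower over all genes tested, the number lower here was near background. The median log2 fold change of the 15 was 0.37, or 0.02 with library size alone, which left 6 higher and 4 lower, and DESeq2 called 6 higher and 2 lower. Il13ra1, part of receptors for IL-4 and IL-13, rose by 1.46, and Il10ra, the chain that pairs with IL10RB, by 1.94. Csf2rb, the shared chain for GM-CSF that signals through JAK2, rose by 1.09, and Csf2rb2, a close copy of it, by 0.89. Ifnlr1, the specific chain of the interferon lambda receptor, had 1 and 3 reads with LPS and 26 and 20 untreated, and fell by 2.81 on the log2 scale. It entered the test through the untreated group alone. Il6ra and Il6st also fell (-0.64 and -0.44). Without untreated replicate 2, the number lower was 2.

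**Figure D5:**
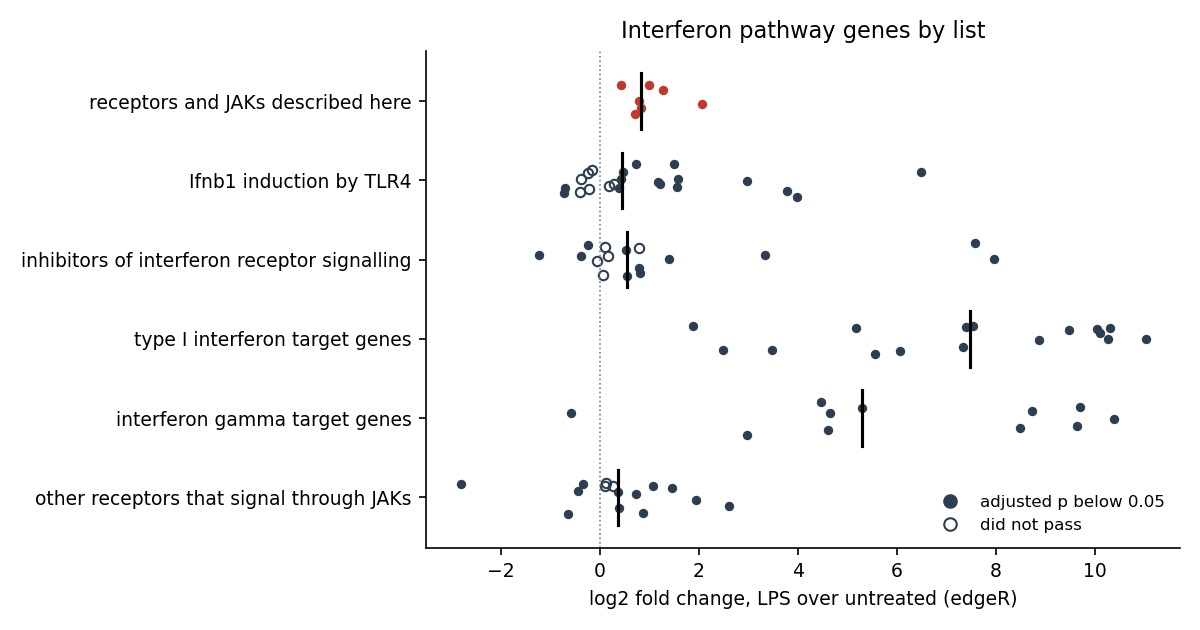
log2 fold change of LPS over untreated for tested genes of 6 lists (points, filled where the edgeR adjusted p was below 0.05), with the median of each list as a black line; points of genes without untreated reads depend on edgeR's prior count. The receptors and JAKs (red) lie between 0.43 and 2.08, below the medians of type I and gamma targets at 7.48 and 5.30.

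Markers of plasmacytoid dendritic cells, specialised interferon producers, were checked too. Siglech and Klk1 had 0 reads in all libraries, and the summed list stood at 326 and 373 CPM with LPS, against 123 and 129 CPM untreated. Its tested genes, Bst2, itself an interferon target, and Tcf4, rose (log2 fold changes 1.88 and 0.66). The part of these markers in the results above was not tested.

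For each tested gene, the tested genes with the most similar profile were found by the root-mean-square difference of mean-centred log2 CPM over the 4 libraries, among 9991 genes. For Jak1 these were Appl1 (0.00167), Eif1 and Mastl, and for Jak2 they included Rai14 (0.0204) and Acsl1. For Tyk2 they were Hk3 (0.0147), P4ha1 and 2010111I01Rik. The nearest profiles were Ppp2r5a, Asph and Socs7 for Ifnar1, and Sar1b, Npm1 and Chchd4 for Ifnar2. For Ifngr1 they were Sec22a, Ctsd and Twf1, and for Ifngr2 Stab1, Aftph and Cbwd1. No other gene of the 9 was among these nearest 3, and this likeness is a description over 4 libraries.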

How the data were processed

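RNA was measured in 4 libraries. The authors deposited raw counts of reads for 24411 gene symbols, neither normalised nor pooled, in STAR's output format with 4 summary lines. STAR 2.5.1, Trimmomatic 0.33, CASAVA 1.8.2 and DESeq2 were used, per the submitters' processing notes, which give the human build hg19 although the symbols are mouse, so coordinates here come from RefSeq GRCm38.p6 and gene order from GENCODE vM21. For the annotation behind the counts, no source used here gives a name.

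Reverse-strand counts were used, since they exceeded forward-strand counts by 78.7 to 95.3 times. The summary lines entered neither library sizes nor tests: 0.295% to 0.432% of uniquely placed reads were ambiguous, 10.1% to 10.6% of all reads were multiply placed, and shares without a feature or unmapped stand with the depth above. Genes were filtered with edgeR's filterByExpr, which kept 9992 of 12982 genes with a count. The test was edgeR 4.0.16 (robust quasi-likelihood, two-sided) under R 4.3.3 with treatment as its single term, called at an adjusted p below 0.05. The SE was approximated from the log2 fold change and the square root of F. TMM factors were 0.888 and 0.880 for LPS and 1.16 and 1.10 for untreated. Chi-square per degree of freedom between the libraries of a group was 2.44 for LPS and 1.52 for untreated, above sampling noise. Floors of 3 counts and 95% intervals cover counting error only.

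The 9 genes and all lists were chosen with earlier results of these data known. Genes were named as follows: all 9 members, up to 4 called genes per list by smallest p, the 3 nearest profiles, genes near the members, and Spi1. Others in the lists were named after their values were seen. Alternatives were other scalings, filters, DESeq2 1.42.0, unstranded counts, GC correction, transcript length, a replicate block and leaving out libraries. Protein sequences were not used here. Some genes of the lists and profiles are not reported here.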

Additional observations from a re-analysis of the deposited data

How the results depend on the processing

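The 7 tested genes stayed higher with LPS under all 14 alternatives, and 6 of them stayed called in each. Ifnar2 was the exception: its log2 fold change was 0.0752 (edgeR adjusted p = 0.638) with library size alone, and 0.35 to 0.52 when single libraries were left out, with an edgeR adjusted p of 0.093 without untreated replicate 2. Leaving out single libraries gave 6 to 7 of the genes higher, and, over all genes, 2114 to 2547 higher and 1949 to 2370 lower, beside 2659 and 2527 with all libraries. Library size alone gave 1379 higher and 4778 lower, and DESeq2 1486 lower. For DESeq2 the cause of that lower count was not tested. With a replicate block 2658 genes were higher and 2513 lower, and all 7 genes stayed higher. Deviations of same-numbered libraries from their group means were nearly unrelated (r = -0.0435 across genes). A shared effect smaller than counting noise could give the same value, so whether the numbers pair samples is not settled. No called change reversed. The small medians of both neighbour lists changed sign under other scalings, and the order of Jak1 and Jak2 per kb with LPS turned with the median transcript length, as given with those results. In all, 22 values moved. Among them were list counts, levels per kb and the counts over all genes with library size alone and, for genes lower, with DESeq2. Where an arm was left with 1 library, it was assumed to vary like the other group. Depth limits Ifnb1 and Jak3, with at most 3 and 10 reads a library.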
